A study of Arabidopsis thaliana with 3 samples.

Results

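CDKA;1 and 9 of its protein inhibitors, the 7 KRP genes with SIM and LGO (also named SMR1), were followed in whole seedlings of Arabidopsis thaliana. These 10 genes were selected by gene identifier out of 37336 genes in the table, and all 10 were found. The data are counts of polyadenylated RNA reads per gene from 3 libraries of 1 group, wild type Col-0, untreated and harvested at 7 days of age. The plants had grown at 21 °C under a cycle of 16 h light and 8 h dark, on Murashige and Skoog agar with 1.5% sucrose. No other genotype, age or treatment was analysed here, so every comparison lies between genes or between the 3 libraries. The labels do not state whether the replicates are separate batches of plants, so any p-value here measures only how these samples vary, and that variation may be technical.

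CDKA;1 is the Arabidopsis cyclin-dependent kinase with the PSTAIRE helix, which D-type, A-type and B-type cyclins bind to switch the kinase on. It drives entry into DNA replication and contributes to entry into mitosis. KRP proteins, relatives of the mammalian inhibitor p27Kip1, bind the kinase and its cyclin through their C-terminal end, and SIM and LGO belong to a plant-specific inhibitor family. In leaves, inhibitors of both families can stop division while DNA replication goes on, which yields the large polyploid cells of trichomes and of the leaf and sepal epidermis.

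The coding bases of the regions that define the 3 classes are shown first, since they set apart the genes whose transcripts are compared. They were read 5′ to 3′ on the coding strand from RefSeq's TAIR10.1 genome. In CDKA;1 (AT3G48750), capitals mark the codons of the PSTAIRE helix, residues 45 to 51 of 294, at chr3:18072422-18072484 on the plus strand.
CDKA;1: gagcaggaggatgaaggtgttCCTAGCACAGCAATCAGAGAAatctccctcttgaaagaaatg

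The next set shows the C-terminal ends of the 7 KRP coding sequences without the stop codon, where 9 of 24 aligned codon positions encode the same residue in all 7 genes. Capitals mark those codons. Each stretch is spliced across 1 intron, and its genomic span is given after the gene's name.
KRP1 (AT2G23430, chr2:9977023-9977203, minus strand): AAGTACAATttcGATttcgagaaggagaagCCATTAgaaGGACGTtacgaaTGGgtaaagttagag
KRP2 (AT3G50630, chr3:18801223-18801363, plus strand): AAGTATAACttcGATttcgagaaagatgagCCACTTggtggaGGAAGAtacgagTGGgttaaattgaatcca
KRP3 (AT5G48820, chr5:19792611-19792757, minus strand): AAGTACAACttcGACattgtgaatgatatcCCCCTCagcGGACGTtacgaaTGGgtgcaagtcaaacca
KRP4 (AT2G32710, chr2:13875165-13875347, plus strand): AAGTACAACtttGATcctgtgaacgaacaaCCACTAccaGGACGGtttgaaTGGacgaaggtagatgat
KRP5 (AT3G24810, chr3:9061587-9061739, plus strand): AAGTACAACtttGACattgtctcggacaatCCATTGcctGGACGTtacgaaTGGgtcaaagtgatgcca
KRP6 (AT3G19150, chr3:6616631-6616935, minus strand): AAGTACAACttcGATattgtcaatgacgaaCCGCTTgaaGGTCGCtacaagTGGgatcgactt
KRP7 (AT1G49620, chr1:18365695-18365840, minus strand): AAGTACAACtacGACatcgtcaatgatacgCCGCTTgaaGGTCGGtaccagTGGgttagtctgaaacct

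SIM and LGO lack that end and share another stretch, in which 18 of 30 aligned codon positions encode the same residue. Capitals mark those codons.
SIM (AT5G04470, chr5:1266974-1267057, minus strand): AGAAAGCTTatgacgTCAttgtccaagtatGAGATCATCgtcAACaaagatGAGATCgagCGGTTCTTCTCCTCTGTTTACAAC
LGO (AT3G10525, chr3:3281633-3281716, minus strand): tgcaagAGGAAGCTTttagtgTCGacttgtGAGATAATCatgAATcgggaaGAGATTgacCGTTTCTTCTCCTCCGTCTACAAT

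Over whole proteins, the 21 pairs of KRPs were 24.9% to 47.1% identical (residues alike as a share of the shorter protein), with a median of 29.6%. Over the last 40 residues the same pairs reached 37.5% to 75.0%, with KRP3 and KRP5 the closest pair on both measures. SIM and LGO were 59.1% identical, and the 14 pairs of a KRP with SIM or LGO 18.1% to 30.7%. Despite this kinship, 0% of the 50-base windows within the exons of any of the 10 genes occurred a second time in the genome, on either strand.

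Overlap with other genes limits 3 of the 10 values. KRP4 shares 38.7% of its exon length with AT2G32720 (cytochrome B5 isoform B), SIM 31.4% with AT5G04475 and LGO 40.3% with AT3G10527, each on the opposite strand, and the other 7 genes share none. The sources used here give no strand setting, so reads from these stretches cannot be placed and the levels of KRP4, SIM and LGO are uncertain. AT5G04475 and AT3G10527, both annotated as uncharacterized proteins, were listed at 0 counts in all 3 libraries. KRP2, KRP6 and KRP7 each have 4 coding exons but 3, 2 and 3 merged exons (the exons of all transcripts joined). Their merged length, by which levels are divided below, thus includes introns of the longest product. The plot of gene models shows that SIM and LGO are single-exon genes, that CDKA;1 has 8 coding exons, and that KRP4 has a long 3′ end. It does not draw the shared parts.

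**Figure D1:**
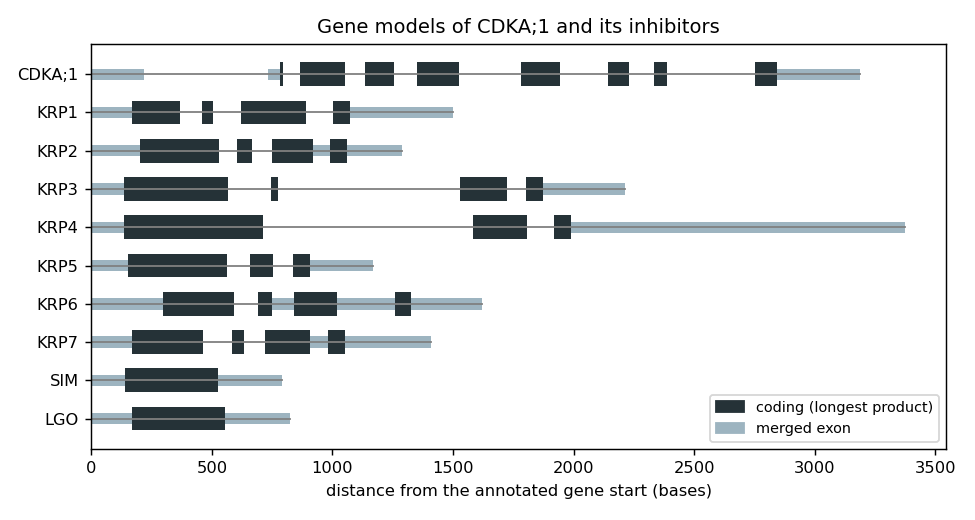
Gene models of the 10 genes, drawn to scale as distance in bases from each annotated gene start. Dark boxes are coding exons of the longest product, pale boxes are merged exons over all transcripts and lines are introns; KRP4 has the longest merged exons, 2391 bases, and SIM the shortest, 792 bases.

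The libraries held 32967215, 31761722 and 27069921 counts in replicates 1, 2 and 3, and replicate 1 stood apart from the others. Over 17050 detected genes replicate 1 differed by more than 2-fold from replicate 2 at 1909 genes and from replicate 3 at 2377, whereas replicates 2 and 3 did so at 33. Root markers were low in replicate 1. The summed level of 7 root hair markers was 1.49, 33.1 and 31.4 CPM in replicates 1, 2 and 3, that of 7 root endodermis markers 38.3, 84.7 and 83.5 CPM, and that of 3 root cap markers 0.169, 1.83 and 1.84 CPM. In the endodermis sum SCR alone supplied 33.65, 38.1 and 36.9 CPM in replicates 1, 2 and 3, so the other markers of that list differed more than the sum shows. Each marker of these 3 lists was lowest in replicate 1, and the root cap markers BRN1 and BRN2 were at 0 there. The summed level of 8 trichome markers was 53.4, 54.6 and 59.9 CPM, that of 8 green tissue markers 52460, 63440 and 60920 CPM, and that of 5 flower and pollen markers at most 0.719 CPM. Green tissue markers were thus abundant in each library, while root transcripts were scarce in replicate 1. Results are therefore given library by library and with and without replicate 1.

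All 10 genes were detected, that is, they reached 1 CPM (counts scaled to library size with TMM factors) or more in each library, against 45.7% of the 37336 genes in the table. In whole seedlings, fewer cells that express a gene and less RNA per cell cannot be told apart.

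CDKA;1, the kinase, was the most abundant of the 10 transcripts. It was at 42.6, 58.4 and 57.7 CPM in replicates 1, 2 and 3, or 52.9 ± 8.90 CPM (SD, n = 3), from 1516, 1786 and 1502 counts. Replicate 1 was the low library, and replicates 2 and 3 differed by a log2 value of 0.02. On the scale used to compare genes, CPM per kb of merged exons, its level of 35.3 ± 5.94 lay above that of 83.6% of detected genes.

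Among the KRPs, KRP4 and KRP1 led. KRP4, which in the shoot apex helps to even out cell size, was at 30.4, 25.6 and 28.1 CPM in replicates 1, 2 and 3, a level of 11.7 ± 0.996 CPM per kb (SD, n = 3). The 3 libraries lay close together for KRP4, with a coefficient of variation of 8.50%. KRP1, the first inhibitor of this kind described in Arabidopsis, was at 20.8, 11.3 and 9.10 CPM, a level of 11.7 ± 5.26 CPM per kb. The mean levels of KRP4 and KRP1 were nearly equal, but KRP1 was the higher gene in replicate 1 and the lower one in replicates 2 and 3.

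KRP2, known for a part in the switch of leaf cells from division to endoreduplication and in lateral root initiation, was the steadiest of the 10 genes. It was at 9.28, 10.4 and 10.3 CPM in replicates 1, 2 and 3, a coefficient of variation of 6.07%, and at 8.83 ± 0.536 CPM per kb (SD, n = 3). Together with KRP4 and KRP1 it made up the upper tier of the KRP family, at 48.9% to 57.7% of the way up the ranking of detected genes.

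The other 4 KRPs formed a lower tier, at 5.32% to 20.05% of the way up the same ranking. KRP6, whose protein is removed through FBL17 and other ubiquitin ligases in the male germ line, was at 6.94, 4.61 and 2.76 CPM in replicates 1, 2 and 3. KRP7, also a target of FBL17, was at 5.45, 2.75 and 2.84 CPM, high in replicate 1 and level between replicates 2 and 3. KRP5, linked to endoreduplication in the root and hypocotyl, was at 2.50, 2.48 and 2.15 CPM.

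KRP3 was the lowest of the family. It had 79, 38 and 33 counts in replicates 1, 2 and 3, with exact 95% Poisson intervals of 62.6 to 98.5, 26.9 to 52.2 and 22.7 to 46.3, which cover counting error only. This corresponds to 2.22, 1.24 and 1.27 CPM. On the CPM scale the interval of replicate 1 reached down to 1.76 CPM and that of replicate 3 up to 1.78 CPM, so these 2 intervals overlapped. The interval of replicate 2 reached up to 1.705 CPM and did not overlap that of replicate 1. Its level of 1.32 ± 0.467 CPM per kb (SD, n = 3) lay above that of 5.32% of detected genes.

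SIM and LGO, the close pair of the plant-specific family, behaved differently across libraries. SIM, which keeps trichomes single-celled while their DNA content grows, was at 3.96, 3.82 and 4.68 CPM in replicates 1, 2 and 3, with replicate 3 highest. LGO, required for giant cells of the leaf and sepal epidermis, was at 11.5, 6.31 and 4.72 CPM, with replicate 1 well above the others. The ratio of LGO to SIM per kb was 2.79, 1.58 and 0.967 in replicates 1, 2 and 3. In replicate 3 the genes were level, at 4.72 CPM for LGO and 4.68 CPM for SIM, and there the ratio was 1.01 without length correction, 1.0 with coding length and 1.11 with unshared exon length. The plot of levels by library shows SIM as a tight group of points and LGO as a spread one.

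**Figure D2:**
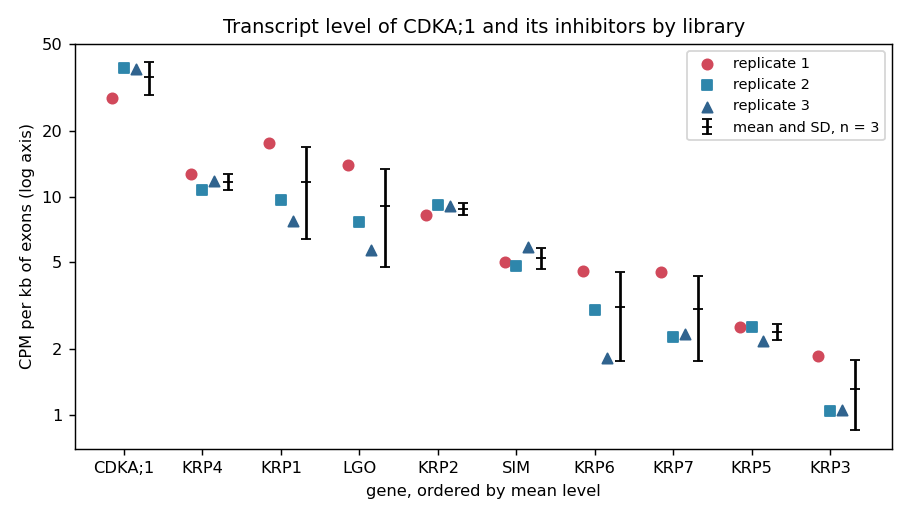
Level of each gene in CPM per kb of merged exons on a log axis, with 1 point per library and the mean with its SD (n = 3) beside them, ordered by mean level. CDKA;1 stands highest at 35.3 ± 5.94 and KRP3 lowest at 1.32 ± 0.467, and replicate 1 is the top point for all genes but CDKA;1, KRP2 and SIM.

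By mean CPM per kb the order was CDKA;1, KRP4, KRP1, LGO, KRP2, SIM, KRP6, KRP7, KRP5 and KRP3. Neighbours did not overlap between libraries in 4 of the 9 steps of this order. CDKA;1 exceeded KRP4 2.97-fold (log2 ratio 1.57 ± 0.37, SD, n = 3), KRP2 exceeded SIM 1.67-fold, SIM exceeded KRP6 1.75-fold and KRP5 exceeded KRP3 1.83-fold, each in 3 of 3 libraries. The number of such steps was 3 under total counts, without length correction and with unshared exon length, 5 without replicate 1 and 4 under the other alternatives. The step from SIM to KRP6 turned round, to a log2 ratio of −0.11, when no length correction was made. The step from KRP2 to SIM fell from a log2 ratio of 0.74 to 0.21 with unshared exon length, and there their libraries overlapped. The two-sided exact test that flips the sign of each library's log2 ratio reaches p = 0.25 at best with 3 libraries, which left no step able to pass. Adjusted over the 9 steps by Benjamini-Hochberg, the smallest of these exact values was 0.45.

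In the other 5 steps the libraries of the 2 neighbours overlapped. KRP1 was above LGO in each library, with log2 ratios of 0.34, 0.33 and 0.43 in replicates 1, 2 and 3, and this ratio varied least of the 9 (SD 0.06, n = 3). Both genes were highest in replicate 1 and lowest in replicate 3. The direction of the ratio rests on the exon length of LGO, for it became −0.37 when exon positions shared with other genes were left out of the length. KRP4 against KRP1, LGO against KRP2, KRP6 against KRP7, and KRP7 against KRP5 differed by less than the spread between libraries. Without replicate 1, KRP2 stood above KRP1 and LGO, at 9.14, 8.70 and 6.68 CPM per kb, and KRP5 above KRP7.

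Set against the kinase, the transcripts of the 9 inhibitors together exceeded CDKA;1 in each library. The summed inhibitor level was 71.0, 50.9 and 47.6 CPM per kb in replicates 1, 2 and 3, and CDKA;1 28.4, 38.95 and 38.5 CPM per kb. The ratio of sum to CDKA;1 was 2.50, 1.31 and 1.24, a mean log2 ratio of 0.67 ± 0.56 (SD, n = 3; two-sided exact sign-flip permutation p = 0.25, the smallest possible). Replicate 1 was well above the others, and without it the log2 ratio was 0.35 ± 0.05. The log2 ratio was 1.03 with coding length and also 1.03 with unshared exon length, so the size of the ratio depends on how genes are measured. With merged exons, the ratio of the KRP sum alone to CDKA;1 was 1.83, 0.986 and 0.936 in replicates 1, 2 and 3. With that length, the excess in replicates 2 and 3 was thus reached only with SIM and LGO. With coding length or unshared exon length, the KRP sum alone was above CDKA;1 in replicates 2 and 3 as well. The levels of SIM and LGO, and of KRP4 within the KRP sum, are uncertain as given above. These are ratios of transcripts and do not give those of the proteins.

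The make-up of the inhibitor sum also differed between libraries, gene by gene. KRP4 made up 17.9%, 21.1% and 24.7% of the sum in replicates 1, 2 and 3, and KRP1 24.9%, 19.0% and 16.2%. KRP4 was the largest share in replicates 2 and 3, and KRP1 in replicate 1. The ranking in replicate 1 depends on the length used, with KRP4 first at 32.7% without length correction, KRP1 at 23.4% just ahead of KRP4 at 22.7% with coding length, and LGO first at 25.8% with unshared exon length. LGO supplied 19.7%, 15.01% and 12.0%, and KRP2 11.6%, 18.0% and 19.1%. SIM and LGO as a pair held 26.7%, 24.5% and 24.4%, or 25.2% ± 1.29 (SD, n = 3). The pair's share was 15.2% without length correction, 24.5% with coding length and 31.3% with unshared exon length. KRP3, the smallest share, held 2.29% ± 0.293.

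**Figure D3:**
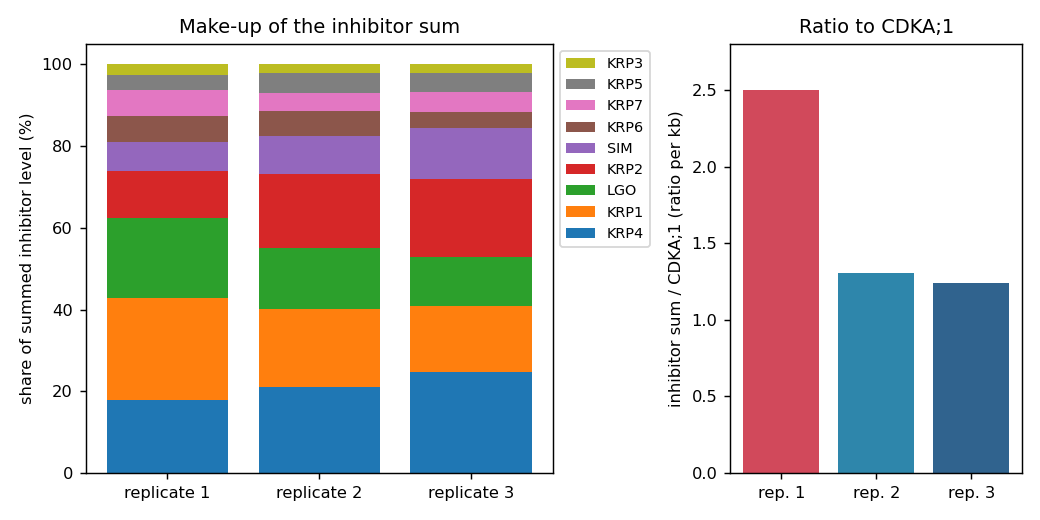
Left, share of each inhibitor in the summed CPM per kb of the 9 inhibitors, in percent, with 1 stacked bar per library. Right, ratio of that sum to CDKA;1 per kb, which was 2.50 in replicate 1 against 1.31 and 1.24 in replicates 2 and 3.

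The 10 genes split by how they differed between libraries. LGO was 2.09-fold, KRP1 2.03-fold, KRP7 1.95-fold, KRP6 1.88-fold and KRP3 1.77-fold higher in replicate 1 than in the mean of replicates 2 and 3, while CDKA;1 was at 0.735 of that mean. KRP4, KRP5, SIM and KRP2 lay between 0.899-fold and 1.13-fold of it. Of the 10 genes 7 had their highest log2 value in replicate 1, against 46.1% of all detected genes. A log2 difference above 1 was reached by 1 of the 10, LGO at 1.01, against 6.6% of detected genes, and KRP1 lay just short of it. That count depends on the settings, being 4 of 10 (LGO, KRP1, KRP6 and KRP7) against 9.60% of detected genes under total counts, and 2 of 10 (LGO and KRP1) against 7.41% with a pseudocount of 0.1 CPM. The 2 shares are descriptions of these libraries, in which root markers were lower in replicate 1 as given above, and their part in these differences was not tested.

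Scaling also bears on the sign of the small differences. The count of genes above 0 in replicate 1 minus the mean of replicates 2 and 3 was 7 of 10 under TMM and 9 of 10 under total counts, which moved the median over all detected genes from 0.02 to 0.17 on the log2 scale. Under total counts KRP2 went from −0.15 to 0.01 and SIM from −0.08 to 0.06, and CDKA;1 alone stayed below 0. The share of all detected genes that were highest in replicate 1 went from 46.1% to 57.5%, and the count among the 10 genes went from 7 to 8. The differences of LGO, KRP1, KRP7, KRP6 and KRP3 kept their sign under TMM, DESeq2 size factors and total counts.

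**Figure D4:**
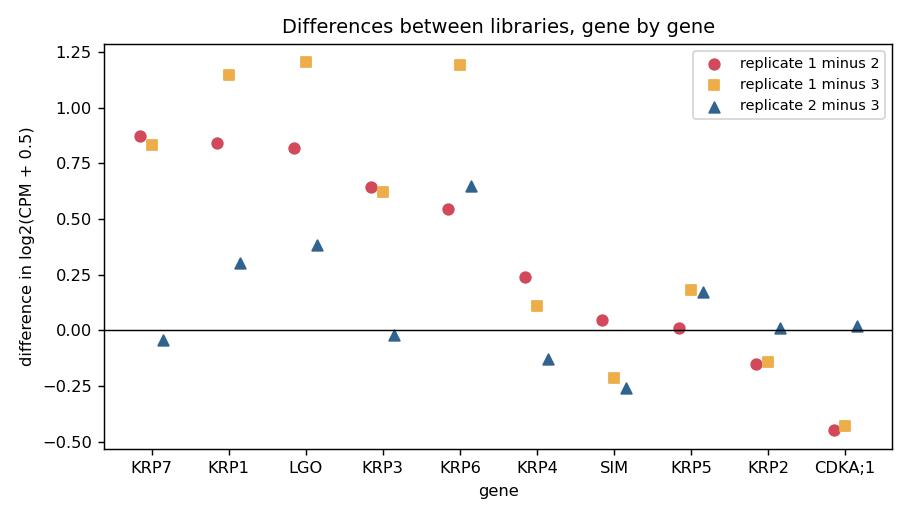
Difference in log2(CPM + 0.5) for each pair of libraries, 1 point per gene and pair, ordered by replicate 1 minus replicate 2. KRP7, KRP1, LGO, KRP3 and KRP6 lie above 0.5 in both pairs that hold replicate 1, and CDKA;1 lies below −0.4 in both.

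Measured against genes of like abundance, no spread of these 10 genes passed the test. The edgeR goodness-of-fit test asks whether a gene varies between the 3 libraries more than the trend of genes at its level, and after Benjamini-Hochberg adjustment over all tested genes it called 2.03% of them. It called 0 of the 10 genes here, and 0 of 10 had an unadjusted p under 0.05 (7.45% of all tested genes did). DESeq2 marked 0 of 10 as dispersion outliers, against 23 of all 19016 genes, so few that 0 of 10 says little. The lowest unadjusted values were 0.165 for KRP1, 0.208 for LGO and 0.279 for KRP6, and each adjusted p was 1. Without replicate 1, KRP6 had an unadjusted p of 0.0375 and an adjusted p of 0.948, at 4.61 CPM in replicate 2 against 2.76 CPM in replicate 3. The trend itself is wide because of replicate 1, with a biological coefficient of variation of 0.319 over 3 libraries and 0.0949 without it.

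The rest of the cell cycle machinery gives the setting. Of 98 listed genes in 10 groups, 89 were matched to the annotation and 79 were detected. The same edgeR test called 0 of the 85 that were tested, against 2.03% of all tested genes. Of the 85, 3 had an unadjusted p under 0.05, against 7.45% of all tested genes. DESeq2 marked 0, against 23 of all 19016 genes. The 10 genes described here had a median level of 7.04 CPM per kb, against 9.14 over all detected genes.

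Of the partners of the kinase, CKS1 and CYCD3;2 were near its own level, while the list medians were 5.18 CPM per kb for kinase activation genes, 9.37 for D-type cyclins and 3.73 for A-type cyclins. CKS1, a small subunit that docks the kinase to its substrates, was at 18.2, 27.2 and 34.4 CPM in replicates 1, 2 and 3, a level of 31.0 ± 9.44 CPM per kb (SD, n = 3). Among the 8 detected D-type cyclins, which carry the kinase into the cycle, CYCD3;2 led at 39.8 ± 3.53 and CYCD3;1 followed at 17.1 ± 1.40 CPM per kb. CDKD;1, a kinase-activating kinase, was the lowest of the kinase activation genes, at 0.725 ± 0.149 CPM per kb, and the other kinases of that type were higher. CYCD7;1, a cyclin of the stomatal lineage, had 3, 6 and 8 counts. The A-type cyclins, which act in S phase and at mitosis, were led by CYCA3;2 at 9.05 ± 0.246 and CYCA2;3 at 7.84 ± 1.12 CPM per kb, and CYCA3;3 was at 0 counts throughout.

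Genes listed under KRP turnover and under upstream regulators differed in level by list. The median was 19.4 CPM per kb for the 8 turnover genes and 3.78 for the 8 upstream regulators, against 9.14 over all detected genes. Of the 8 turnover genes all were detected, with ASK1, a subunit of SCF ubiquitin ligases, at 193 ± 54.0 and RHF2A, a ubiquitin ligase gene acting on KRP6, at 51.0 ± 1.23 CPM per kb (SD, n = 3). SKP2B, an F-box gene linked to KRP1 turnover, was lowest at 1.65 ± 0.183 CPM per kb. Of the listed upstream regulators, GTL1, which limits endoreduplication in trichomes, was at 29.0 ± 10.9 CPM per kb. ATML1, the epidermal regulator that acts ahead of LGO, was at 19.5 ± 2.19 CPM per kb. GTL1 was high in replicate 1, at 137, 81.5 and 69.3 CPM, while ATML1 was low there, at 77.1, 88.3 and 96.6 CPM. SCL28, a regulator of SMR genes, was at 1.52 ± 0.183 CPM per kb.

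Downstream of the kinase, RBR1, the retinoblastoma relative that it phosphorylates, was at 44.6, 52.7 and 46.9 CPM in replicates 1, 2 and 3, or 12.5 ± 1.09 CPM per kb (SD, n = 3). DPB, a partner of E2F factors, was at 6.07 ± 0.617 and the repressor DEL2 at 0.444 ± 0.140 CPM per kb. Of the activators of the anaphase-promoting complex, which destroys mitotic cyclins, several were high in replicate 1. CDC20.1 was at 39.8, 15.9 and 19.8 CPM and CCS52B at 28.7, 8.27 and 11.3 CPM, both highest in replicate 1, with adjusted p = 0.633 and 0.264 in the edgeR test. CCS52A2, which promotes endoreduplication, was lowest of its list at 2.102 ± 0.524 CPM per kb.

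Genes of replication and mitosis stood near the lower inhibitors. The 10 S phase genes had a median of 3.34 CPM per kb, from PCNA2, the replication clamp, at 10.5 ± 0.161 and PCNA1 at 8.11 ± 0.145 to the licensing factor CDC6 at 0.727 ± 0.171 (SD, n = 3). The 16 G2/M genes had a median of 3.45 CPM per kb, from CDKB2;1, a mitotic kinase, at 14.1 ± 4.11 and KNOLLE, a syntaxin of the dividing cell plate, at 8.48 ± 2.89 to CYCB2;1 at 1.06 ± 0.390. In replicate 1, 9 of 10 S phase genes and 10 of 16 G2/M genes were above both other libraries, against 46.1% of all detected genes under TMM scaling and 57.5% under total counts, with median log2 differences from the mean of replicates 2 and 3 of 0.44 and 0.32. The same median was 0.63 for the 9 inhibitors, 0.53 for the 7 anaphase-promoting complex genes, −0.08 for the 8 turnover genes and 0.02 over all detected genes.

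**Figure D5:**
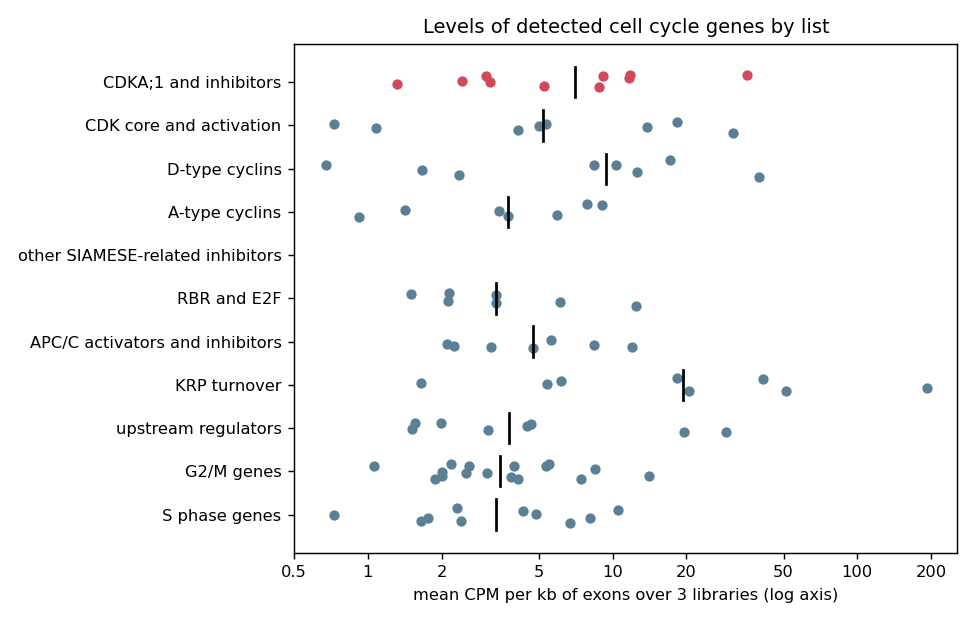
Mean level over 3 libraries in CPM per kb of merged exons, on a log axis, for each detected gene of the 10 cell cycle lists, with CDKA;1 and its inhibitors in red and the median of each list as a black line. The medians run from 3.34 for S phase genes to 19.4 for KRP turnover genes, and the row of other SIAMESE-related inhibitors is empty because 0 of its 3 matched genes were detected and 9 names were not matched.

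Of 12 other SIAMESE-related inhibitors listed by name, 9 could not be matched to the annotation, so their levels are not given under those names. Of the 3 that were matched, 0 were detected. SMR7, a target of the DNA damage regulator SOG1, had 21, 61 and 42 counts in replicates 1, 2 and 3, or 0.590, 1.99 and 1.61 CPM, and so missed the limit of 1 CPM in replicate 1. SMR4 had 34, 45 and 41 counts. SMR5, also induced by DNA damage, had 0 counts in each library, which allows up to 3 counts, or 0.0843 CPM in replicate 1, 0.0981 CPM in replicate 2 and 0.115 CPM in replicate 3.

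The annotation also describes 7 loci without a symbol as cyclin-dependent kinase inhibitors, 5 of them in words that liken them to an SMR protein. They may include some of the 9 unmatched names, which the annotation used here does not pair with loci. They were chosen by that description after the lists had been written, and 5 of the 7 were detected. AT1G08180 was the most abundant, at 7.87, 6.15 and 8.33 CPM in replicates 1, 2 and 3, a level of 7.78 ± 1.20 CPM per kb (SD, n = 3), between those of KRP2 and SIM. AT1G10690 was at 3.01, 5.79 and 5.64 CPM, and AT5G02420, annotated as SMR3-like, at 1.15, 3.46 and 3.22 CPM. AT1G60783, annotated as SMR2-like, was at 0 counts in each library.

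These loci did not have the library profile of LGO. Of the 5 detected, 0 were highest in replicate 1, against 46.1% of all detected genes, and 4 were lowest there, against 43.3%. Their median log2 difference from the mean of replicates 2 and 3 was −0.34, against 0.63 for the 9 named inhibitors, most of which are KRPs. Within the family of SIM and LGO, the difference was −0.08 for SIM and 1.01 for LGO. It was −0.47 for SMR4 and −1.07 for SMR7, neither of them detected, so SIM, SMR4 and SMR7 also lacked the profile of LGO. Of the loci without a symbol, 6 entered the edgeR goodness-of-fit test, and 0 were called after adjustment. Root markers were lower in replicate 1 too, and their part in these differences was not tested.

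The library profile of each gene was compared with the 79 detected list genes by the Euclidean distance of log2(CPM + 0.5), centred per gene, over 3 libraries. Nearest to CDKA;1 was the mitotic kinase gene CDKB1;2, at a distance of 0.111 and at 2.59, 3.37 and 3.26 CPM, also lowest in replicate 1. KRP7 lay nearest to the mitotic cyclin gene CYCB2;4 (0.0192) and then to MYB3R1 (0.0590), which encodes a regulator of mitotic genes. KRP1 lay nearest to GTL1 (0.123), and LGO and KRP6 to the replication licensing gene MCM6 (0.156 and 0.153). KRP5 lay nearest to MCM4 (0.0163), KRP4 to DPB (0.0354), KRP3 to CYCA3;1 (0.0578), KRP2 to CDKB2;2 (0.0350) and SIM to CYCD4;1 (0.0484). Such likeness is common with 3 points, since among 17050 detected genes 1161 were at least as near to CDKA;1 as CDKB1;2, and 293 as near to KRP1 as GTL1, these list genes included. The number was 15 for KRP7 with CYCB2;4, the smallest for any of the genes, 25 for KRP5 with MCM4 and 341 for LGO with MCM6. The list genes were picked as the nearest of 79, which favours low numbers.

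The promoters of the 10 genes were searched for motifs of cell cycle regulation. In the 250 bases before each annotated start, on both strands, the E2F-type motif TTTNNCGC was present in 5.86% of 27443 protein-coding promoters and in 0 of the 10. The TCP-type motif GGNCCCAC was present in 1.09% and in 0 of the 10. AACGG, the core of the mitosis-specific activator element that MYB3R factors bind, was present in 20.6% and in 4 of the 10, with 6 matches in KRP1, 3 in KRP7, 2 in KRP2 and 1 in KRP3. Of the 4 genes with a match, KRP1, KRP7 and KRP3 were among those higher in replicate 1, while KRP2 was the steadiest gene. LGO and KRP6 were also higher in replicate 1 and had no match. Whether the match goes with the library profile was not tested.

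In KRP1 and KRP2 a match extends to AACGGCGCC, a longer motif that holds AACGG and was noticed only when the sequences were read. It was present in 15 of the 27443 promoters, those of KRP1 and KRP2 included, starting 45 and 69 bases before the annotated starts. The bases around it are shown on the coding strand of each gene, with the motif in capitals.
KRP1 (chr2:9978107-9978155, minus strand): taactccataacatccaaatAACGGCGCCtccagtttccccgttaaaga
KRP2 (chr3:18800217-18800265, plus strand): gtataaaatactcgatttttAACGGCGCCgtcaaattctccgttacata
The 2 genes nevertheless differed between libraries, KRP1 at 20.8, 11.3 and 9.10 CPM and KRP2 at 9.28, 10.4 and 10.3 CPM in replicates 1, 2 and 3. A match is a description of letters and does not show that a factor binds there.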

How the data were processed

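The deposited file holds whole-number counts per gene, 1 column for each of 3 libraries. Per the submitters' processing notes the tools were featureCounts 1.6.1, HISAT2 2.1.0 and DESeq2 with build TAIR10, no role or order being stated. Whether counting used strand, how reads on several genes were handled, and which annotation served were not given in the sources used here. Random hexamers primed the cDNA of polyadenylated RNA, per the labels' protocols.

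CPM used TMM factors of 1.079, 0.9631 and 0.9624 (edgeR 4.0.16, R 4.3.3). Merged exons, coding sequences and coordinates come from RefSeq's TAIR10.1 annotation. Levels were compared as CPM per kb, with a pseudocount of 0.1 for log2 ratios, and libraries as log2(CPM + 0.5). The goodness-of-fit test used an intercept, filterByExpr (19016 genes), trended dispersion and Benjamini-Hochberg adjustment over all tested genes at 0.05, and was tested on simulated data. DESeq2 1.42.0 dispersion outliers were an alternative. Proteins translated from coding sequences were aligned with Biopython 1.88 (BLOSUM62) and MAFFT 7.526. Python 3.11.15 was used.

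The genes and lists were chosen with earlier results of these data known. Of 137 list genes in 16 lists, 116 matched by symbol or synonym, 11 by an alias and 10 not at all. The text names each of the 10 genes, the 2 highest and the lowest gene of each cell cycle list by CPM per kb, any list gene that the test called, and the nearest list gene in library profile. Markers of root, trichome, green tissue, flower and pollen were summed in each library. Alternatives covered scaling, length, detection limit, pseudocount, filter, tool and each library left out. Intervals cover counting error only.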

Additional observations from a re-analysis of the deposited data

How the results depend on the processing

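The number of detected genes was 10 under each alternative except a limit of 2 CPM, which KRP3 missed (9). The summed inhibitors exceeded CDKA;1 under each alternative, with log2 ratios from 0.35 to 0.85 when 1 library was left out. The share of KRP4 in the inhibitor sum was 21.2% and became 37.6% without length correction, 26.8% with coding length and 26.95% with unshared exon length, an alternative added after the data were seen, and it ranged from 19.5% to 22.9% with 1 library left out. The alternatives for the share of SIM with LGO, for the ratio of LGO to SIM and for the number of genes above 1 on the log2 scale were also added after the data were seen. The other lengths change only the divisor of each gene. Of 63 alternative values of the steps in the order of levels, 9 were reversed. The log2 ratio of LGO to KRP2 was −0.05 and became 0.19 with coding length, 0.68 with unshared length, and −0.46, 0.048 and 0.25 without replicates 1, 2 and 3. KRP1 to LGO became −0.37 with unshared length, and SIM to KRP6 −0.11 without length correction. With 1 library left out, KRP4 to KRP1 ranged from −0.16 (without replicate 3) to 0.37, KRP6 to KRP7 from −0.17 (without replicate 2) to 0.21, and KRP7 to KRP5 from −0.018 (without replicate 1) to 0.46. The goodness-of-fit test called 386 of all genes, 61 to 128 with 1 library left out (fewer samples), and DESeq2 marked 23; none of the 10 genes was called under any of these. Coding lengths came from the genome annotation. No paired analysis was possible because the study has 1 group. With 33 to 79 counts, KRP3 is the gene that depth limits most.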
